A study of Mus musculus with 4 samples.

Results

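The genes described are 37 genes of the germline and of meiosis, chosen by their symbols: components of the synaptonemal complex, meiotic cohesin subunits, recombination factors, the piRNA pathway and germline genes known to be silenced by DNA methylation. The 37 were chosen with earlier results of these data known. All were found in the deposited table of 55401 genes, each at 1 row. RNA was sequenced from E14 mouse embryonic stem cells (mESCs), in 2 WT libraries and 2 Haspin-KO libraries. The authors' culture medium for mESCs held serum, LIF and 2i, and the sample titles name no treatment of either genotype. The Haspin-KO cells were single clones, picked after 2 gRNAs against Haspin were transfected into WT E14 cells and the cells were selected with puromycin. Which of the Haspin-KO lines each library came from is not given in the labels, and nothing in them says that the 2 libraries of a group were separate cultures, so p-values measure only the spread between these libraries.

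The libraries held 14207828 to 21834847 counted reads, with the WT libraries the larger ones, and a gene at 3 counts or fewer in a library (0.137 to 0.211 CPM) was taken as at the floor, which covers counting error only. Haspin itself had 875 and 619 counts in WT and 149 and 209 in Haspin-KO, a log2 fold change of -1.60 (SE 0.16, adjusted p = 0.00154, edgeR). The summed FPKM of 10 mESC markers was 3537 and 3608 in WT and 3203 to 3270 in Haspin-KO. Dppa5a alone had a mean of 1572 FPKM in WT and 1365 in Haspin-KO. Of the 10 log2 fold changes, 8 were below 0 and 2 above, from -0.29 to 0.08. At an adjusted p under 0.05, 0 were called (edgeR). At an unadjusted p under 0.05, 3 were lower and 0 higher, against 10.4% of all genes tested in each direction. Markers of embryonic fibroblasts, on which the mESCs were maintained for passage (the surface used for these libraries is not given), summed to 46.9 to 63.8 FPKM in WT and 7.89 to 7.96 in Haspin-KO. Of 11 tested among the 15 listed, 10 were lower at an adjusted p under 0.05 (edgeR), and Postn (171 and 77 counts in WT) and Lox (1215 and 657) were at 0 counts in both Haspin-KO libraries. Dcn, Fap and Twist2, at 0 there too, had 0 to 4 counts in WT, and Lum was at 0 in all libraries. Markers of 2-cell-like cells summed to 32.3 to 37.1 FPKM in WT and to 68.3 to 94.2 in Haspin-KO, and 6 of the 10 tested were higher at an adjusted p under 0.05 (edgeR). The share of mitochondrial counts was 2.80% to 2.97% in WT and 3.20% to 3.22% in Haspin-KO. The part of these differences in the values of the germline genes was not tested. In bulk RNA, fewer cells of a type and less RNA per cell cannot be told apart.

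Germ cells set themselves apart from somatic cells by a shared set of genes, many of which carry CpG-rich promoters that are methylated and silent in somatic tissue. Sequence-specific repressors that bind E-box and E2F-type motifs, among them complexes of Mga, Max and E2f6, hold the same genes down in embryonic stem cells. In medium with 2i the DNA of mESCs is known to lose much of its methylation, and low transcripts of germline genes are well known in such cells. In the germline these genes later serve meiosis, in which the synaptonemal complex and meiotic cohesins join homologous chromosomes, and the piRNA pathway, which silences transposons.

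Levels were compared between genes as FPKM, which corrects for exonic length. Averaged over the 4 libraries, 24 of the 37 genes had at least 1 FPKM and 10 had at least 5 FPKM, whereas 3 were below 0.1 FPKM. The 10 highest were, in descending order, Tex19.1 (39.0 FPKM), Rnf17 (25.6), Fkbp6 (22.1), Syce2 (16.3), Syce1 (9.84), Dazl (9.06), Stag3 (8.57), Hormad1 (7.66), Stk31 (6.30) and Rec8 (6.14). Tex19.1 stood above every other member in each library. From Rnf17 down, each gene's range over the libraries overlapped that of the next, except between Syce2 and Syce1, so that these neighbours in the order did not differ beyond their spread. These 10 genes belong to different steps: piRNA and transposon control, the central element of the synaptonemal complex, RNA binding, cohesin and the chromosome axis. The 4 genes that did not pass the filter on low counts were Sycp2, with 5 to 14 counts in a library, Mei1, with 0 to 6, Spo11, with 2 counts in 1 Haspin-KO library and 0 in the other 3, and Tdrd6, with 1 count in each of 2 libraries. Spo11 makes the double-strand breaks that open meiotic recombination, Mei1 is needed for those breaks, and Sycp2 builds the chromosome axis, so that genes of a single process ranged from the floor to several FPKM.

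**Figure D1:**
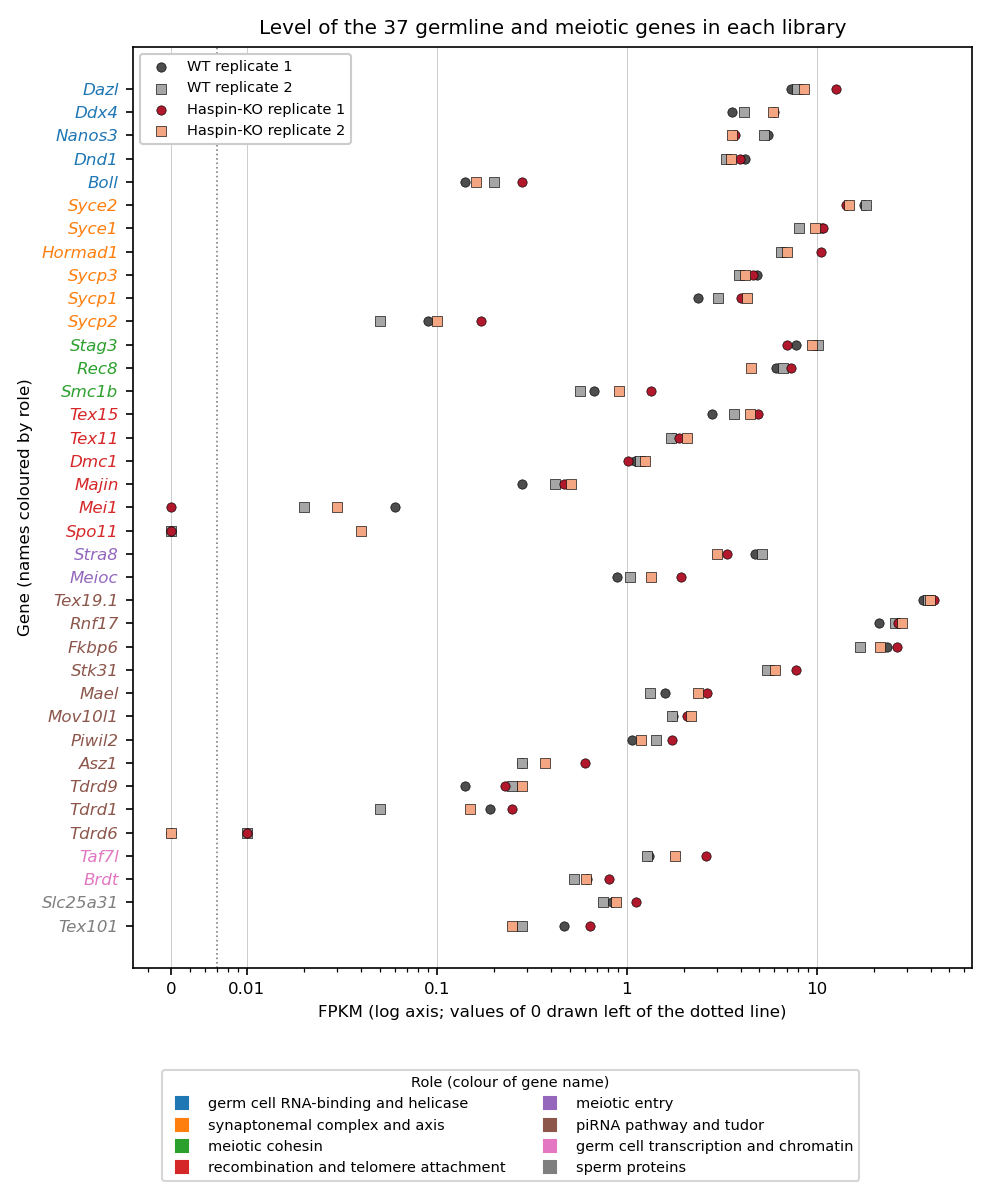
FPKM (log axis) of each of the 37 germline and meiotic genes in the 2 WT libraries (dark and light grey) and the 2 Haspin-KO libraries (red and orange), with gene names coloured by role and values of 0 drawn left of the dotted line. Tex19.1, Rnf17, Fkbp6 and Syce2 lie above 10 FPKM in all libraries, and Spo11, Mei1 and Tdrd6 lie below 0.1.

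The comparison of Haspin-KO with WT asked whether these genes differed between the 2 groups of libraries. Transfection, puromycin selection and picking of single clones are described for the Haspin-KO cells and not for WT. Their effects cannot be told apart from those of the loss of Haspin. Of the 37 genes, 33 passed the filter and were tested, and 0 were called as DEGs (fold change over 2 with an adjusted p under 0.05) in either direction by edgeR, where 0.327% of all 15580 genes tested were called higher and 0.501% lower. At any fold change 0 had an adjusted p under 0.05, against 2.50% of all genes, and the smallest adjusted p was 0.0553, for Ddx4. At an unadjusted p under 0.05, 9 were higher (27.3%) and 3 were lower (9.09%) in Haspin-KO, while 10.4% of all genes were higher and 10.4% lower. By the same threshold DESeq2, which fitted all 37 members, gave 6 higher and 2 lower, against 3.21% and 3.66% of the 28670 genes it fitted. Limma on log2(FPKM + 0.1), which covered 27 members, gave 6 higher and 3 lower, against 8.40% and 10.1% of 14817 genes. With the adjusted p, which DESeq2 gave for 27 members, it called Tex15 alone (adjusted p = 0.0462, log2 fold change 0.52) and 1.62% of all genes. Limma called 0 of all 14817 genes, so that its 0 among the members says nothing about them.

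Most of the estimates lay above 0. The log2 fold change was positive in 26 of the 33 genes (78.8%, against 49.4% of all genes tested), with a median of 0.28 against 0.00 over all genes, and it ranged from -0.65 (Stra8) to 0.85 (Smc1b), so that none of the 33 reached a 2-fold difference. In 17 of the 33 genes (51.5%) both Haspin-KO libraries lay above both WT libraries, which held for 25.3% of all genes tested. In 3 (9.09%) both lay below, which held for 26.9% of all genes. The 95% interval of the log2 fold change stayed between -1 and 1 for 19 genes, whereas it extended past a 2-fold rise for 12 and past a 2-fold fall for 3. Without the filter on low counts, the estimate was above 0 in 28 and below 0 in 9 of the 37 genes, with a median of 0.27. In that fit Dazl, Ddx4, Meioc, Sycp1 and Tex15 had an adjusted p under 0.05 on the higher side and Stra8 on the lower side, as did 4.09% of all genes (edgeR). Transcripts of the 33 genes had a median GC content of 44.9% against 49.7% over all genes tested, and log2 fold changes over all genes correlated with GC content at r = -0.216 (genes are not independent replicates). With GC content and gene length corrected for, an alternative chosen after seeing the data, the median was 0.24 and 27 of 33 estimates were positive, but several single estimates moved by over 1.5 times. Hormad1 went from 0.42 to 0.07, Rnf17 from 0.22 to 0.07, Sycp1 from 0.63 to 0.33, Dazl from 0.47 to 0.25 and Tex15 from 0.53 to 0.33. Stk31 went from 0.27 to 0.11 and Asz1 from 0.78 to 0.48, while Fkbp6 went from 0.24 to 0.37 and Tex19.1 from 0.10 to 0.24. Ddx4 (0.50), Mael (0.65), Meioc (0.59), Smc1b (0.70), Taf7l (0.62), Stra8 (-0.55), Nanos3 (-0.40) and Syce2 (-0.28) stayed within 1.5 times of their estimates.

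The 2 Haspin-KO libraries differed from each other in these genes. Replicate 1 exceeded replicate 2 in 23 of the 33 genes (69.7%, against 50.1% of all genes tested), with a median log2 ratio of 0.12. Without Haspin-KO replicate 1 the median log2 fold change of the genes was 0.15, and 3 genes, Ddx4, Sycp1 and Tex15, had an adjusted p under 0.05 (edgeR). Without Haspin-KO replicate 2 the median was 0.44 and 7 genes did, namely Dazl, Ddx4, Hormad1, Meioc, Smc1b, Taf7l and Tex15, of which Smc1b passed a 2-fold change (log2 fold change 1.09). With either library left out the share of all genes with an adjusted p under 0.05 was also higher, at 4.6% and 5.34%. Without WT replicate 1 or WT replicate 2, 0 of the genes had an adjusted p under 0.05, and 0.6% and 0.635% of all genes did. Several single estimates rested on 1 library. Without Haspin-KO replicate 1 the log2 fold change was 0.19 for Dazl, 0.11 for Hormad1, 0.09 for Stk31, 0.41 for Asz1, 0.50 for Meioc, 0.56 for Smc1b, 0.48 for Taf7l and 0.10 for Fkbp6. Without Haspin-KO replicate 2 it was 0.71 for Dazl, 0.66 for Hormad1 and 0.43 for Stk31. Without WT replicate 1 it was 0.08 for Rnf17, 0.33 for Tex15, 0.06 for Tex19.1 and 0.48 for Fkbp6, and without WT replicate 2 it was 0.37 for Rnf17 and 0.03 for Fkbp6. Ddx4, Sycp1, Mael, Stra8, Nanos3 and Syce2 stayed within 1.5 times of their estimates in these 4 fits. The lone library of a group was assumed to vary like the other group in these fits.

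**Figure D2:**
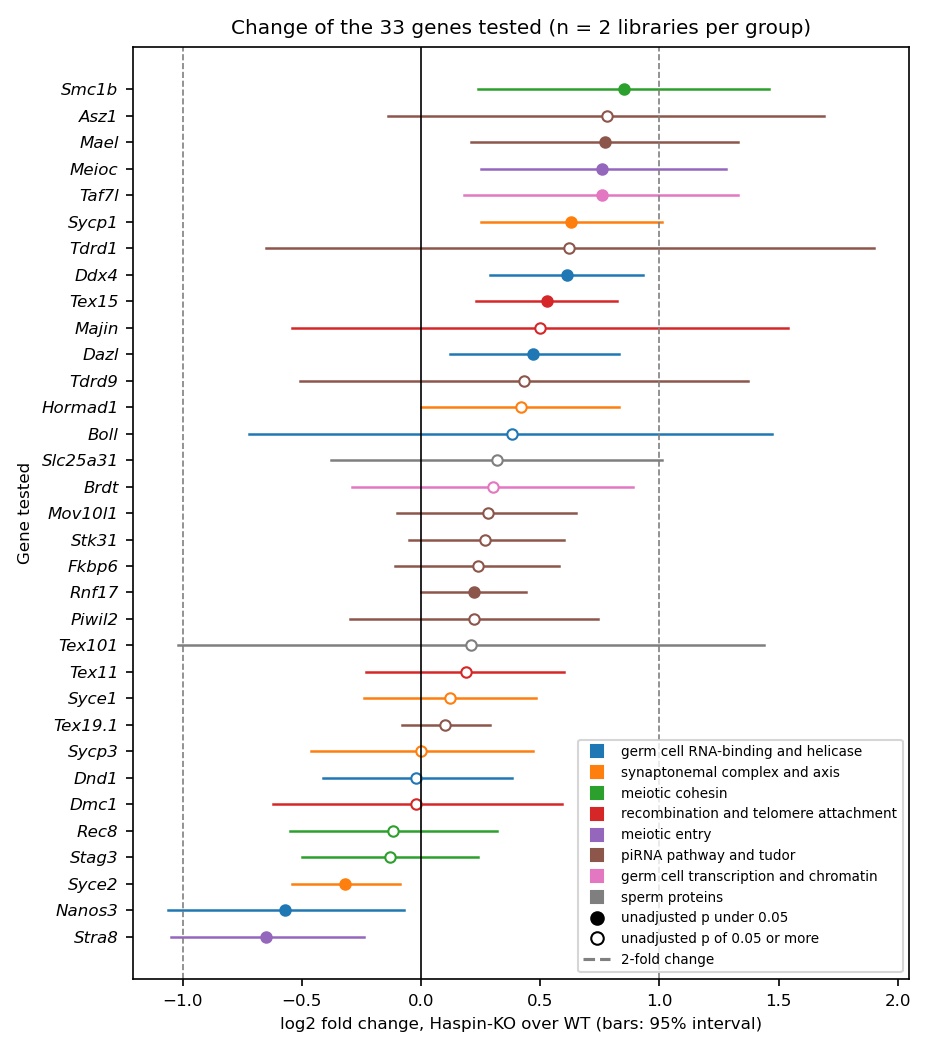
Log2 fold change of Haspin-KO over WT for the 33 genes tested, with 95% intervals, filled points for an unadjusted p under 0.05 and dashed lines at a 2-fold change. Estimates run from -0.65 for Stra8 to 0.85 for Smc1b, and 26 of the 33 lie above 0.

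Among the RNA-binding proteins of germ cells, Ddx4 had the smallest p of the 33 genes tested by edgeR. Without the filter on low counts, and with DESeq2, Tex15 had a smaller adjusted p (0.00646 against 0.0176 for Ddx4, and 0.0462 against 0.0934). Ddx4 (mouse vasa homolog, ENSMUSG00000021758, mm10 chromosome 13, from 112598333 to 112652475) encodes an RNA helicase of germ granules. It had 3.59 and 4.16 FPKM in the WT libraries and 5.95 and 5.88 in the Haspin-KO libraries. Both Haspin-KO values were above both WT values and close to each other. The log2 fold change was 0.61 (SE 0.14, 95% interval 0.29 to 0.93, adjusted p = 0.0553, edgeR). Dazl (ENSMUSG00000010592, chromosome 17, from 50279395 to 50293636), a translational regulator needed for germ cell development, had 7.30 and 7.84 FPKM in WT and 12.58 and 8.54 in Haspin-KO. The groups did not overlap, but the Haspin-KO libraries differed more from each other than replicate 2 did from WT (log2 fold change 0.47, SE 0.16, adjusted p = 0.134, edgeR). Nanos3 (ENSMUSG00000056155, chromosome 8, from 84173731 to 84185217) protects primordial germ cells from death, and its values went the other way. It had 5.55 and 5.27 FPKM in WT against 3.73 and 3.60 in Haspin-KO, with no overlap (log2 fold change -0.57, SE 0.22, adjusted p = 0.189, edgeR). Dnd1, which acts with Nanos proteins, had 3.79 ± 0.615 and 3.77 ± 0.290 FPKM (SD, n = 2 libraries each) with a log2 fold change of -0.02 (95% interval -0.41 to 0.38), and 140 of its exonic bases are shared with Wdr55 on the opposite strand, between which counting without strand could not tell. Boll, a relative of Dazl used later in spermatogenesis, had 8 to 14 counts in a library, and its log2 fold change of 0.38 had a 95% interval from -0.72 to 1.47.

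The synaptonemal complex consists of transverse filaments, a central element and lateral elements on the chromosome axis, and its genes did not share a direction. Sycp1 (ENSMUSG00000027855, chromosome 3, from 102818499 to 102936100) encodes the transverse filament. It had 2.36 and 3.03 FPKM in WT and 4.02 and 4.30 in Haspin-KO. All Haspin-KO values were above the WT values, and the log2 fold change was 0.63 (SE 0.17, 95% interval 0.25 to 1.01, adjusted p = 0.0814, edgeR). For Syce2 (ENSMUSG00000003824, chromosome 8, from 84872111 to 84888221), a central element protein, WT had 17.78 and 18.28 FPKM and Haspin-KO had 14.31 and 14.75. The 2 libraries of each group lay close together and both Haspin-KO values were lower (log2 fold change -0.32, SE 0.10, adjusted p = 0.123, edgeR). Syce1, its partner in the central element, had 10.70 and 8.08 FPKM in WT and 10.75 and 9.82 in Haspin-KO, so that the groups overlapped (log2 fold change 0.12, 95% interval -0.24 to 0.48). Hormad1 (ENSMUSG00000028109, chromosome 3, from 95559677 to 95587671) marks unsynapsed axes and is needed for normal break formation. It had 6.57 and 6.53 FPKM in WT, and 10.54 and 7.01 in Haspin-KO. Haspin-KO replicate 2 was close to the WT libraries and replicate 1 stood apart (log2 fold change 0.42, SE 0.19, adjusted p = 0.244, edgeR). The estimate was 0.11 without that library and 0.07 with GC content and length corrected for. Sycp3, the main lateral element protein, had 4.38 ± 0.679 FPKM in WT and 4.42 ± 0.283 in Haspin-KO (SD, n = 2 libraries each), but 52.2% of its 1264 exonic bases in GENCODE M21 overlap Chpt1 exons transcribed from the other strand, and whether reads were assigned by strand is not given (log2 fold change 0.00, 95% interval -0.46 to 0.47). Sycp2 had too few counts to be tested.

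Meiotic cohesin holds sister chromatids together with subunits that replace those of mitosis. Smc1b (ENSMUSG00000022432, chromosome 15, from 85064689 to 85131964) had the largest estimate of the 33 genes. It had 59 and 40 counts in WT and 77 and 53 in Haspin-KO, which is 0.67 and 0.57 FPKM against 1.34 and 0.91. Both Haspin-KO values were above both WT values, on a low level (log2 fold change 0.85, SE 0.27, 95% interval 0.24 to 1.46, adjusted p = 0.125, edgeR). Stag3 had 7.77 and 10.14 FPKM in WT and 6.95 and 9.44 in Haspin-KO, and Rec8 had 6.10 and 6.66 against 7.29 and 4.51. For both the spread within the groups exceeded the difference between them, with log2 fold changes of -0.13 (SE 0.17) and -0.12 (SE 0.19). The sign for Stag3 turned without WT replicate 2 (0.08) and without Haspin-KO replicate 1 (0.09), and that for Rec8 turned without Haspin-KO replicate 2 (0.17) and with GC content and length corrected for (0.01).

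The 6 genes of recombination and telomere attachment ranged widely in level. Tex15 (ENSMUSG00000009628, chromosome 8, from 33516738 to 33585582), required for recombination and for piRNA-directed silencing in male germ cells, was the only one with an unadjusted p under 0.05. It had 2.81 and 3.69 FPKM in WT and 4.90 and 4.47 in Haspin-KO. The groups did not overlap (log2 fold change 0.53, SE 0.13, 95% interval 0.23 to 0.82, adjusted p = 0.0724, edgeR). Tex11, an X-linked recombination gene, had 1.74 ± 0.0283 FPKM in WT and 1.98 ± 0.141 in Haspin-KO, and Dmc1, the meiotic recombinase, had 1.15 ± 0.0495 and 1.13 ± 0.170 (SD, n = 2 libraries each). The 95% interval for Dmc1 ran from -0.62 to 0.59 on the log2 scale. Majin, which ties telomeres to the nuclear envelope, had 10 to 12 counts in each library and a log2 fold change of 0.50 (95% interval -0.54 to 1.54).

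The values of Stra8 and Meioc, grouped here under the entry to meiosis, went in opposite directions. Stra8 (ENSMUSG00000029848, chromosome 6, from 34920163 to 34939344), induced by retinoic acid when germ cells enter meiosis, had 4.75 and 5.18 FPKM in WT and 3.36 and 3.0 in Haspin-KO. The groups were apart, with the Haspin-KO values the lower ones (log2 fold change -0.65, SE 0.18, 95% interval -1.05 to -0.24, adjusted p = 0.089, edgeR). Meioc (ENSMUSG00000051455, chromosome 11, from 102663716 to 102682237), which extends meiotic prophase, had 0.89 and 1.04 FPKM in WT and 1.94 and 1.35 in Haspin-KO. The Haspin-KO values lay above the WT values and apart from each other (log2 fold change 0.76, SE 0.23, adjusted p = 0.109, edgeR).

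In the piRNA pathway and the tudor-domain genes, all 10 genes tested had estimates above 0, from 0.10 to 0.78 with a median of 0.28, where 49.4% of all genes tested had estimates above 0. None of the 10 had an adjusted p under 0.05 (edgeR), and 2, Mael and Rnf17, were higher at an unadjusted p under 0.05, against 10.4% of all genes. Of 16 further genes grouped here with the piRNA pathway, outside the 37, 8 estimates were above and 8 below 0. Mael (ENSMUSG00000040629, chromosome 1, from 166201201 to 166238747), which acts in transposon silencing, had 1.59 and 1.32 FPKM in WT and 2.64 and 2.36 in Haspin-KO. The groups were well apart for a gene of 40 to 65 counts (log2 fold change 0.77, SE 0.25, adjusted p = 0.127, edgeR). Rnf17 (ENSMUSG00000000365, chromosome 14, from 56402581 to 56525032), a tudor protein of germ granules, had 21.39 and 25.78 FPKM in WT and 26.95 and 28.15 in Haspin-KO. WT replicate 2 was close to Haspin-KO replicate 1, and the estimate was small (log2 fold change 0.22, SE 0.10, adjusted p = 0.238, edgeR). Asz1, a germ granule protein on mitochondria, had 17 and 14 counts in WT and 24 and 15 in Haspin-KO, and its log2 fold change of 0.78 had a 95% interval from -0.14 to 1.69. Fkbp6, a cochaperone of piRNA loading, had 23.49 and 16.96 FPKM in WT and 26.54 and 21.46 in Haspin-KO, with overlapping groups (log2 fold change 0.24, SE 0.15). Stk31, a kinase with a tudor domain, had 5.91 and 5.47 FPKM in WT and 7.83 and 6.01 in Haspin-KO (log2 fold change 0.27, SE 0.14). Tex19.1 (ENSMUSG00000039329, chromosome 11, from 121146143 to 121148319), which restrains retrotransposons in germ cells and placenta, had the highest level and one of the tightest estimates. It had 36.53 and 38.57 FPKM in WT and 41.43 and 39.52 in Haspin-KO, a log2 fold change of 0.10 with a 95% interval from -0.08 to 0.29. Piwil2, the PIWI protein among the 37 genes, had 1.25 ± 0.255 FPKM in WT and 1.46 ± 0.382 in Haspin-KO, and Mov10l1, the helicase that starts piRNA processing, had 1.75 ± 0.00707 and 2.12 ± 0.0707 (SD, n = 2 libraries each). Tdrd1 and Tdrd9 were between 0.05 and 0.28 FPKM in all libraries, and Tdrd6 was at the floor.

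Taf7l (ENSMUSG00000009596, chromosome X, from 134460118 to 134476490), a germ cell form of a TFIID subunit, had 1.31 and 1.28 FPKM in WT and 2.60 and 1.79 in Haspin-KO. The WT libraries agreed closely, and the Haspin-KO libraries were above them and apart from each other (log2 fold change 0.76, SE 0.26, adjusted p = 0.14, edgeR). Brdt, the testis member of the BET bromodomain family, had 0.575 ± 0.0636 FPKM in WT and 0.710 ± 0.141 in Haspin-KO (SD, n = 2 libraries each). Slc25a31, the germ cell ADP/ATP carrier, had 0.75 to 1.12 FPKM over the 4 libraries, and Tex101, a sperm surface protein, had 6 to 17 counts in a library.

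Several of the genes have somatic paralogs, and these were far more abundant in most cases. In WT, Smc1a had 75.9 times the FPKM of Smc1b, Rad21 had 14.9 times that of Rec8, Taf7 had 49.2 times that of Taf7l, and Slc25a5 had 399 times that of Slc25a31. Stag3 and Fkbp6 were exceptions: Stag1 and Stag2 had 1.59 and 1.24 times the FPKM of Stag3, and Fkbp5 had 0.907 times that of Fkbp6. In Haspin-KO the ratio of Smc1a to Smc1b was 38.2 and that of Taf7 to Taf7l was 29.3, while Rad21 had 17.3 times the FPKM of Rec8. Of the 15 genes tested on this list, which also held the meiotic gene Rad21l (not tested), 0 were higher and 1 was lower at an adjusted p under 0.05 (edgeR), namely Fkbp4 (log2 fold change -0.35, adjusted p = 0.0463).

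**Figure D3:**
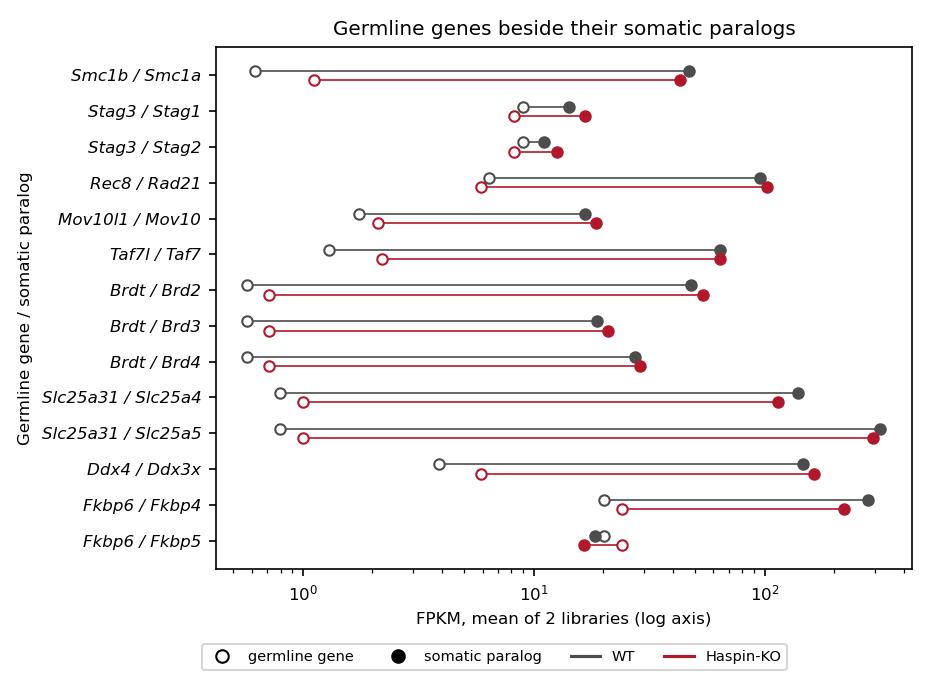
Mean FPKM (log axis, n = 2 libraries) of germline genes (open points) and their somatic paralogs (filled points) in WT (grey) and Haspin-KO (red). In each pair shown the paralog is above the germline gene, except Fkbp6 with Fkbp5, and the ratio of Smc1a to Smc1b is 75.9 in WT and 38.2 in Haspin-KO.

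Other genes of the same pathways, on lists outside the 37, had medians of 0.05 to 0.11 on the log2 scale, against 0.28 for the 37 and 0.00 for all genes tested. Of 30 other meiotic genes, 22 were tested, with a median log2 fold change of 0.11. Their estimates were above 0 in 17 (77.3%) and below 0 in 5, a share above 0 close to the 78.8% of the germline and meiotic genes. At an adjusted p under 0.05, 1 gene was higher and 0 lower (edgeR). That gene was Six6os1 (listed as 4930447C04Rik), a central element protein that binds Syce1, with 2.70 FPKM in WT and 4.52 in Haspin-KO (log2 fold change 0.74, SE 0.12, adjusted p = 0.0185). The 3 most abundant of this list, Trip13, Mnd1 and Ccnb1ip1, had log2 fold changes of 0.04, 0.13 and 0.03. Of the 16 genes grouped here as further piRNA pathway genes, all tested, D1Pas1 alone had an adjusted p under 0.05 (edgeR). It was higher (14.6 against 23.7 FPKM, log2 fold change 0.69, SE 0.11, adjusted p = 0.0186, edgeR). D1Pas1 is listed by this grouping only, as an intronless copy of Ddx3x. It is near-identical to its parent, so that reads could have been split between them. Ddx3x itself had a log2 fold change of 0.15 (SE 0.08). A further list held 12 genes of primordial germ cells. Of these, 11 were tested, with a median of 0.07, and 7 estimates were above and 4 below 0. Dppa2 was higher (40.5 against 55.1 FPKM, log2 fold change 0.44, SE 0.08, adjusted p = 0.0221, edgeR) and 0 were lower. Of the 16 repressors of germline genes, all were tested and 0 had an adjusted p under 0.05 (edgeR). At an unadjusted p under 0.05, 2 were higher (Dnmt3a and Dnmt3b) and 1 was lower (Ring1). By that threshold 10.4% of all genes tested were higher and 10.4% lower. Among the repressors, E2f6, Mga and Max had log2 fold changes of 0.00, 0.21 and -0.03, and Dnmt1 had 0.01.

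**Figure D4:**
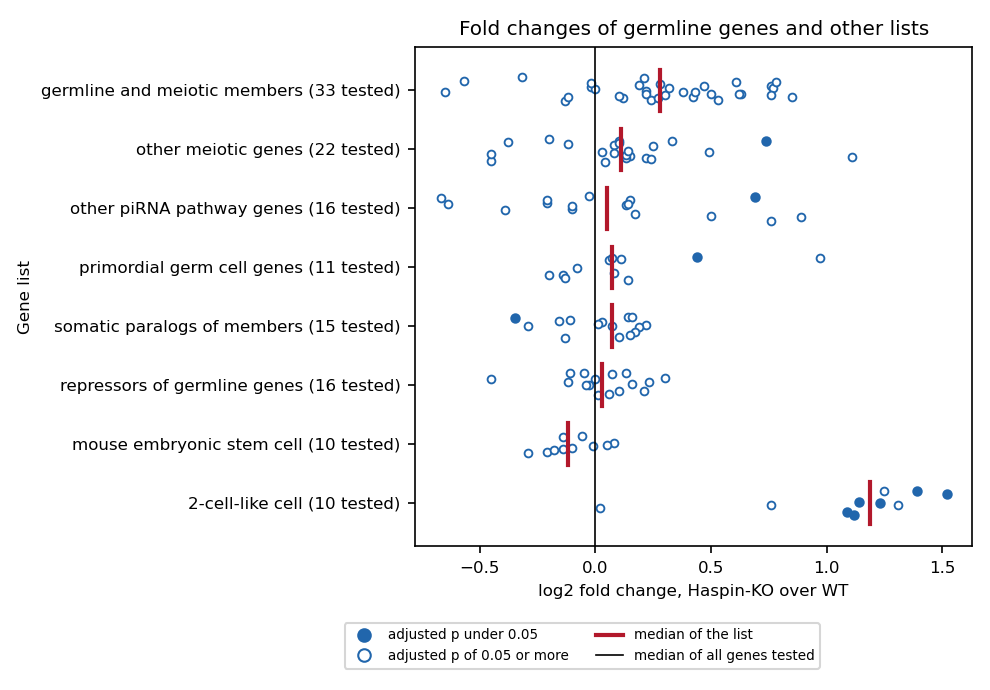
Log2 fold change of each gene tested (Haspin-KO over WT) in the 37 germline and meiotic genes and in 7 other lists, with filled points for an adjusted p under 0.05 and red bars for medians. The germline and meiotic genes have a median of 0.28 and no filled point, and the 2-cell-like markers have a median of 1.19.

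Promoter sequence was set beside these values, since many of the genes are known for CpG-rich promoters with E-box and E2F-type motifs. RefSeq promoter windows (GRCm38.p6, the build of the deposited coordinates; 300 bases, from 250 before to 50 after the start) were matched for 29 of the 37 genes by symbol. Windows for Dnd1, Majin, Piwil2, Rnf17, Spo11, Tdrd6, Tex11 and Tex15 were not used here. The E-box CACGTG, which reads the same on both strands, occurred in a window of 16 of the 29 genes (55.2%) and of 8.09% of all 27025 genes. The E2F-type motif TCCCGC, searched on both strands, occurred in 14 (48.3%) against 22.0% of all genes. An observed over expected CpG ratio of at least 0.6 was found in 21 (72.4%) against 36.5%. For a gene with several windows this ratio was that of the first listed window, whereas a motif was counted in any window. Among genes with that ratio, the E-box was in 14 of 21 (66.7%) of the germline and meiotic genes and in 12.4% of all genes, whereas the E2F-type motif was in 52.4% and 45.3%. No test was run, and a match in these letters is not evidence of binding.

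The windows of 7 genes, chosen after their values were seen, are given with each motif in capitals and the rest in lower case. Smc1b (0.85) and Asz1 (0.78), which had the largest estimates, are not among them. Ddx4 (chr13:112652261-112652560, minus strand), Sycp1 (chr3:102936051-102936350, minus strand) and Mael (chr1:166238695-166238994, minus strand) hold both motifs and had estimates above 0 at an unadjusted p under 0.05. Syce2 (chr8:84872008-84872307, plus strand, the one of its 2 windows with more matches) holds both as well and had an estimate below 0 at that threshold. Dazl (chr17:50293571-50293870, minus strand) also had an estimate above 0 and holds neither motif. Stra8 (chr6:34920698-34920997, plus strand) and Nanos3 (chr8:84176503-84176802, minus strand), with estimates below 0, hold neither. Of the other genes higher at that threshold with a window, Taf7l holds the E-box alone, and Smc1b and Meioc hold the E2F-type motif alone.
Ddx4: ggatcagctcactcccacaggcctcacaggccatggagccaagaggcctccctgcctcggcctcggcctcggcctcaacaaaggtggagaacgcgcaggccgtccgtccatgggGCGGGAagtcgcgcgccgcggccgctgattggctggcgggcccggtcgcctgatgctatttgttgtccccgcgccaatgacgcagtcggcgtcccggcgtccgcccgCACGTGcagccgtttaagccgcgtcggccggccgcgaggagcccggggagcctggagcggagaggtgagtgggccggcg
Sycp1: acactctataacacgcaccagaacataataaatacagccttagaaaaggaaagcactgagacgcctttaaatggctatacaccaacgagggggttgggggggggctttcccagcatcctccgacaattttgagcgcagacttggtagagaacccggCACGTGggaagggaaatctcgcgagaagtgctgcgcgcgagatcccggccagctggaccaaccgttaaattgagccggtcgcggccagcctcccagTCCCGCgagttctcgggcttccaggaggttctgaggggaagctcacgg
Mael: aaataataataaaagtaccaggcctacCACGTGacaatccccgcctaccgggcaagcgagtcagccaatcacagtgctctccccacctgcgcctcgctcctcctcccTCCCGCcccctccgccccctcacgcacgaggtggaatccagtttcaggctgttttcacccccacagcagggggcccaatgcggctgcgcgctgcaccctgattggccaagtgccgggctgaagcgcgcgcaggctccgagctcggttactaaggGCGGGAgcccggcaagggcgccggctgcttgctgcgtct
Syce2: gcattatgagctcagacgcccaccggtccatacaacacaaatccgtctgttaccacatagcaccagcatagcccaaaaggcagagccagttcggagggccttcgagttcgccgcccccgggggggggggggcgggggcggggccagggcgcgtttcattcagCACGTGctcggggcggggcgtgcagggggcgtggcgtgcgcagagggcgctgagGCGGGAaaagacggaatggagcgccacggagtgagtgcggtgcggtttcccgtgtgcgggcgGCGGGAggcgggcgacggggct
Dazl: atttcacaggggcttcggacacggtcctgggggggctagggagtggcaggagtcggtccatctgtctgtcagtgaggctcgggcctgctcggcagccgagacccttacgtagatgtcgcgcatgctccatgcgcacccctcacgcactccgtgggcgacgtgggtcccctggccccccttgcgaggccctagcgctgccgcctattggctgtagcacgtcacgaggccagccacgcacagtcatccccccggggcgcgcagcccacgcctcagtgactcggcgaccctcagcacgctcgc
Stra8: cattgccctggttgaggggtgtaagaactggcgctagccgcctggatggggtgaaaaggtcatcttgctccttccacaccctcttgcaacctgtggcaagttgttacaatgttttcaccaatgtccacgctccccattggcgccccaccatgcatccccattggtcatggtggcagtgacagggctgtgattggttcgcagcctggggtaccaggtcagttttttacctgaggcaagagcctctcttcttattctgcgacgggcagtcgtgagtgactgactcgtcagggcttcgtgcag
Nanos3: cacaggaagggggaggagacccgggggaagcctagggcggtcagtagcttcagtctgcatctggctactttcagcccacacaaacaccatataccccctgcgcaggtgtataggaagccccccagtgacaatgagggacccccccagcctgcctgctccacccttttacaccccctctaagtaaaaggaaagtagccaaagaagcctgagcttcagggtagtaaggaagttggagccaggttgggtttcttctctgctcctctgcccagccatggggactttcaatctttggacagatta
Counted from 1 at the 5′ end of the window, the E-box begins at base 222 in Ddx4, at 157 in Sycp1, at 28 in Mael and at 163 in Syce2, and the E2F-type motif at 115 in Ddx4, at 253 in Sycp1, at 108 and 262 in Mael and at 217 and 279 in Syce2. The CpG ratio of the window shown was 0.978 in Ddx4, 0.874 in Sycp1, 0.780 in Mael, 0.962 in Syce2 and 0.795 in Dazl, against 0.430 in Stra8 and 0.131 in Nanos3. For Syce2 the ratio used in the shares above was 0.704, from its first listed window.

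Across the tested genes with a window, the 16 with an E-box had a median log2 fold change of 0.35, from -0.32 (Syce2) to 0.77 (Mael), with 13 above 0, 2 below and Sycp3 at 0.00. The 11 without one had a median of 0.12, from -0.65 (Stra8) to 0.85 (Smc1b), with 7 above and 4 below 0. The ranges overlapped over most of their length, and the difference was not tested. Smc1b, Asz1 and Meioc, among the largest estimates, have no E-box in the window.

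**Figure D5:**
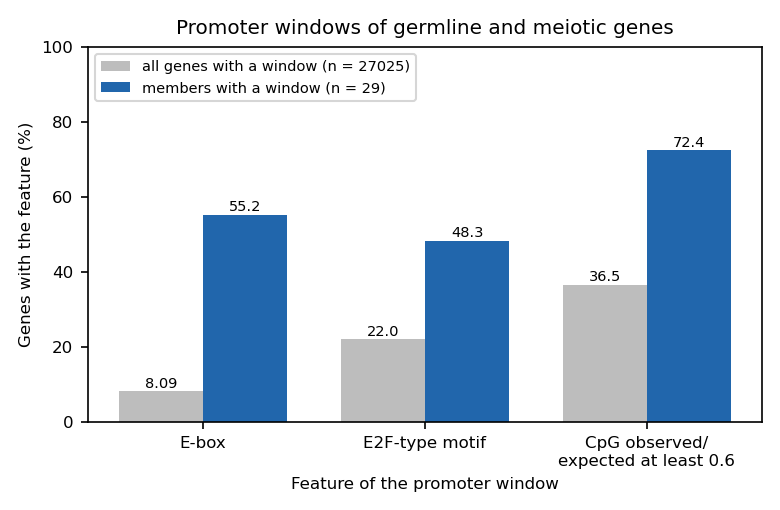
Share of genes (%) whose promoter window holds the E-box, the E2F-type motif or a CpG observed over expected ratio of at least 0.6, for all 27025 genes with a window (grey) and the 29 germline and meiotic genes with one (blue). The E-box is in 55.2% of the germline and meiotic genes and in 8.09% of all genes.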

How the data were processed

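RNA was extracted with TRIzol from WT and Haspin-KO E14 mESCs and sequenced as 2 libraries per genotype. Before deposit, the authors trimmed the reads (Cutadapt v1.9.1) and aligned these with Hisat2 (v2.0.1) to mm10, and the submitters' processing notes also name HTSeq (0.6.1). The deposited table gives raw read counts per gene and library, without normalization, and FPKM values that the authors computed from exonic length. The annotation release, the strand setting and how multi-mapping reads were handled are not given in the sources used here. Groups and replicate numbers came from the sample titles.

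Here the counts were filtered (filterByExpr), TMM-normalized and tested over all genes with edgeR (4.0.16, R 4.3.3) by its quasi-likelihood test, with Benjamini-Hochberg adjustment over 15580 genes. DEGs had a fold change over 2 with an adjusted p under 0.05. SE is the log2 fold change over the square root of F, and intervals are 95%. Replicates of a group differed by more than sampling noise (chi-square per degree of freedom 6.99 in WT and 5.49 in Haspin-KO). DESeq2 (1.42.0), limma (3.58.1) on log2(FPKM + 0.1) or log2(FPKM + 1) for genes of at least 0.5 FPKM in 2 libraries, other normalizations and filters, thinning to the smallest library, a replicate block and leaving out each library were alternatives, and the scripts were tested on simulated data.

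The members and lists (other meiotic, other piRNA pathway and primordial germ cell genes, somatic paralogs, repressors, markers) were chosen with earlier results of these data known. Values in every library are given for members with an adjusted or unadjusted p under 0.05, the 10 with the highest mean FPKM, and the 3 largest estimates in each direction. Of the lists other than markers, genes with an adjusted p under 0.05 are named. For the other meiotic genes the 3 most abundant are named as well. The lists of primitive endoderm markers (5 tested) and differentiation markers (9 tested) had 0 genes with an adjusted p under 0.05 (edgeR). At an unadjusted p under 0.05 the endoderm list had 0. By that threshold 2 differentiation markers were higher, Fgf5 (log2 fold change 3.00, with 2 and 1 counts in WT and 9 and 10 in Haspin-KO) and Dnmt3b (0.30). Another 2 were lower, T (-0.81) and Otx2 (-0.65). Of all genes tested, 10.4% were higher and 10.4% lower. Positions of 37 of 37 members equal those of GENCODE M21 (GRCm38). The paralog of 1 member is not reported here.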

Additional observations from a re-analysis of the deposited data

How the results depend on the processing

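Of the 20 members with values in every library, Stag3, Rec8 and Syce1 turned sign under some alternative. For Stag3 this was without WT replicate 2 (0.08) and without Haspin-KO replicate 1 (0.09), for Syce1 without WT replicate 2 (-0.05), and for Rec8 without Haspin-KO replicate 2 (0.17) and with GC content and length corrected for (0.01). Over all genes, 51 higher and 78 lower DEGs became 125 and 140 without the filter on low counts, 0 and 0 with limma on log2(FPKM + 0.1) or log2(FPKM + 1), and 154 and 236 at any fold change. Lower DEGs numbered 45 with DESeq2 and 36 among genes with at least 10 counts in every library. With each library left out in turn, they numbered 17 to 157 higher and 37 to 150 lower, the members called higher numbered 0 to 1, and the members' median ranged from 0.15 (without Haspin-KO replicate 1) to 0.44 (without Haspin-KO replicate 2); the estimate ranged from -0.49 to 0.17 for Rec8, from -0.39 to 0.09 for Stag3 and from -0.05 to 0.33 for Syce1. The median was 0.15 with limma on log2(FPKM + 1), and the cause of these shifts was not tested.

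The groups share replicate numbers, but nothing says that these mark a shared culture or day. Differences between replicates 1 and 2 correlated across genes between WT and Haspin-KO (r = 0.338, genes not being independent). With the replicate number as a block, DEGs over all genes numbered 240 and 167, and 0 members were DEGs. At any fold change, 11 members were higher and 2 lower with an adjusted p under 0.05 (edgeR), as were 22.6% of all genes. That fit had 1 residual degree of freedom and infinite prior degrees of freedom. Its quasi-likelihood spread was therefore taken from all genes and not from the single gene.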
